A study of Mus musculus with 12 samples.

Results

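The genes described here are 48 members of the interferon response and of class I antigen presentation, listed by symbol, out of 24421 gene symbols counted in each library. Of the 48, 37 had enough reads to stand among the 13102 genes tested. They were measured by RNA sequencing in Min6, a mouse insulinoma line that makes insulin. The 6 sh-Il22ra1 libraries (titled shRNA) came from cells given a knockdown adenovirus against Il22ra1, the alpha chain of the interleukin-22 receptor, and the 6 sh-ctrl libraries (titled GFP) from cells given a control adenovirus. All cells are labelled WT, were infected for 48 h and received 0.3 mM palmitate (PA), a saturated fatty acid, for 24 h, so the sh-ctrl values too are from virus-infected, palmitate-treated cells of 1 line. In sh-Il22ra1 replicates 2 to 6 the treatment label ends in a number that counts up from that of Il22ra1, and groups were taken from the titles.

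Interferons are secreted proteins that signal through JAK kinases to transcription factor complexes, one of which holds IRF9 and binds the interferon-stimulated response element (ISRE) in front of antiviral genes. Cells make interferon when sensors such as RIG-I or cGAS meet foreign nucleic acid and signal through the adaptors MAVS or STING to the kinase TBK1 and the factors IRF3 and IRF7. The same pathway raises class I antigen presentation, in which peptides enter the endoplasmic reticulum through the TAP transporter and are loaded onto class I heavy chains paired with beta-2 microglobulin. Strong class I display on beta cells is a known feature of islets in type 1 diabetes.

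Reads in genes ran from 14408576 to 15595603 in sh-Il22ra1 libraries and from 13108494 to 15887448 in sh-ctrl libraries. Il22ra1 itself had 1 to 4 reads in each sh-Il22ra1 library and 7 to 20 in each sh-ctrl library, or 0.164 CPM ± 0.0873 and 0.831 CPM ± 0.256 (SD, n = 6 each; two-sided exact permutation p = 0.00216, the smallest that 6 against 6 allow). CPM are reads per 1e+06 gene reads after TMM scaling, a correction for library composition. Reads without an alignment to the mouse genome took 8.71% to 11.8% of sh-Il22ra1 files and 12.8% to 17.3% of sh-ctrl files, so that this share moved with the groups, and its part in the results was not tested. On the second principal component, with 13.7% of the variance, the sh-ctrl libraries were spread widely. Replicates 1 (18.2) and 4 (31.9) lay at one end and replicates 2 (-17.7) and 6 (-16.2) at the other. The sh-Il22ra1 libraries ran from -9.30 to 6.27. Whether the 6 libraries of a group came from separate cultures is not in the labels, and each p-value therefore reflects variation among these libraries alone, possibly technical.

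Of the 37 tested members, 12 were higher and 8 lower in sh-Il22ra1 cells, and 17 did not pass the threshold of 0.05 on the Benjamini-Hochberg adjusted p of edgeR. That is 54.1% of the members called, against 51.9% of all 13102 tested genes (25.4% higher and 26.5% lower), so the share called among the members was close to the background. In 10 members, or 27.0%, the ranges of the groups did not overlap, as in 28.1% of all tested genes. The median log2 fold change of the tested members was 0.14 and that of all tested genes -0.0043. With offsets fitted to length and GC content of the transcripts, the median of the members was 0.071. The median of all genes ran from -0.018 to 0.0028 over the alternative analyses. Of the members, 2 changed by more than 2-fold, Nlrc5 upward and Mavs downward, and 4.87% of all tested genes did. The plot of log2 fold changes by role shows where the 2 directions lay: class I presentation genes hold the largest rise, while the sensors and adaptors hold the largest fall and no gene that passed upward.

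**Figure D1:**
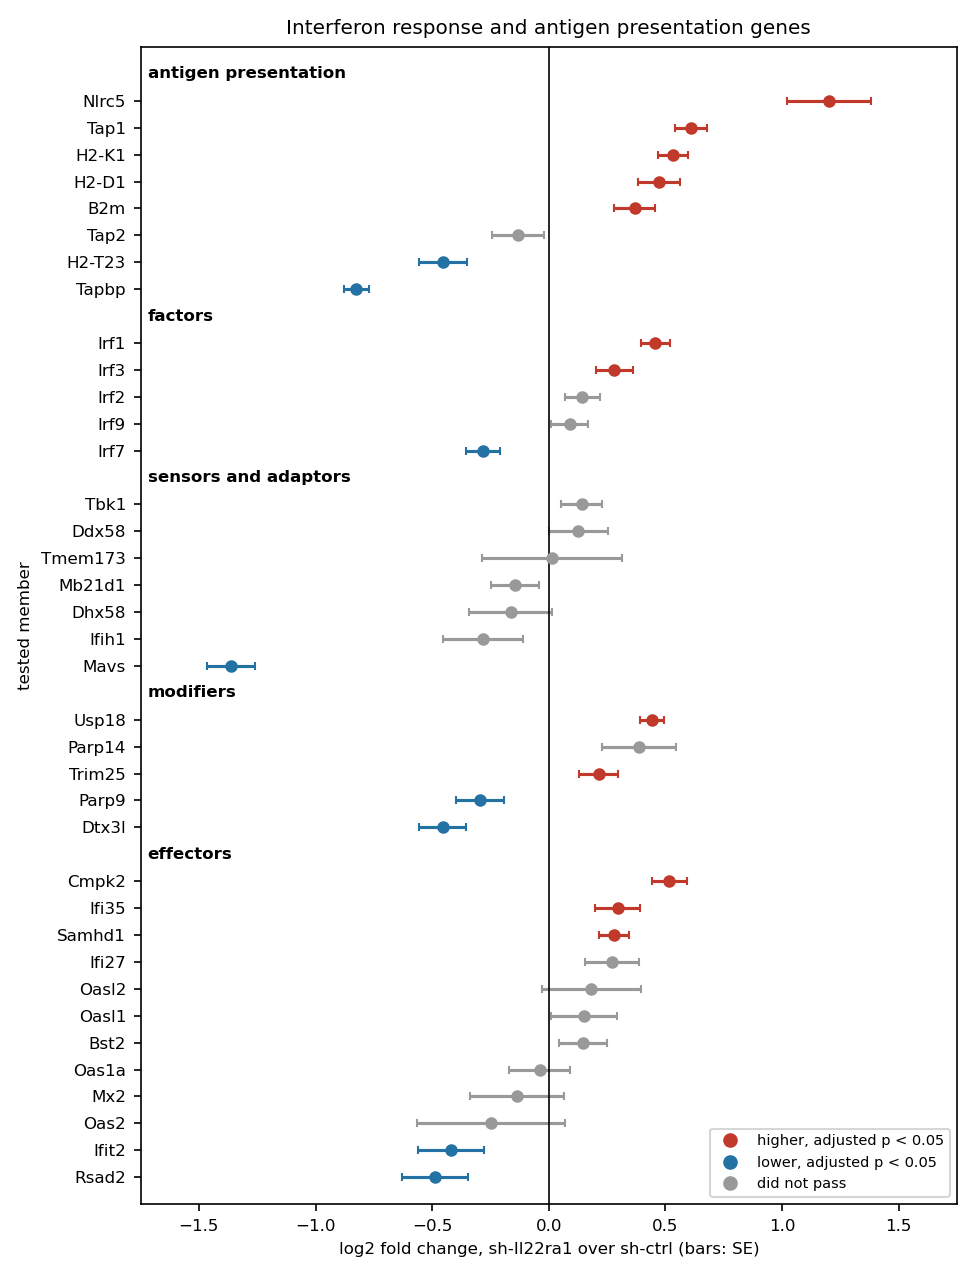
Log2 fold change (x axis, sh-Il22ra1 over sh-ctrl) of the 37 tested members (y axis), grouped by role, with bars for 1 SE. Red and blue points passed edgeR's test upward (12) and downward (8), and grey points (17) did not pass.

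The levels of the members spanned several orders of magnitude. Compared per length, as mean CPM per kb of the reference transcript, H2-K1 led with 535 in sh-Il22ra1 cells and 369.8 in sh-ctrl cells. Ifi27 (104 and 86.7), B2m (99.8 and 77.5), Usp18 (95.7 and 70.4) and Tapbp (72.3 and 128) followed on the same scale in sh-Il22ra1 and sh-ctrl cells. These 5 held the first 5 ranks in both groups, with Tapbp at rank 5 in sh-Il22ra1 and rank 2 in sh-ctrl cells. H2-K1 alone made up 40.8% of the summed CPM of the members in sh-Il22ra1 cells and 32.9% in sh-ctrl cells. At the other end, 11 members fell below the count filter, with 0 to 22 reads in any library. They are the antiviral genes Isg15, Ifit1, Ifit3, Mx1, Oas3, Ifi44, Gbp2, Gbp3 and Gbp7 and the factors Irf5 and Irf8.

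**Figure D2:**
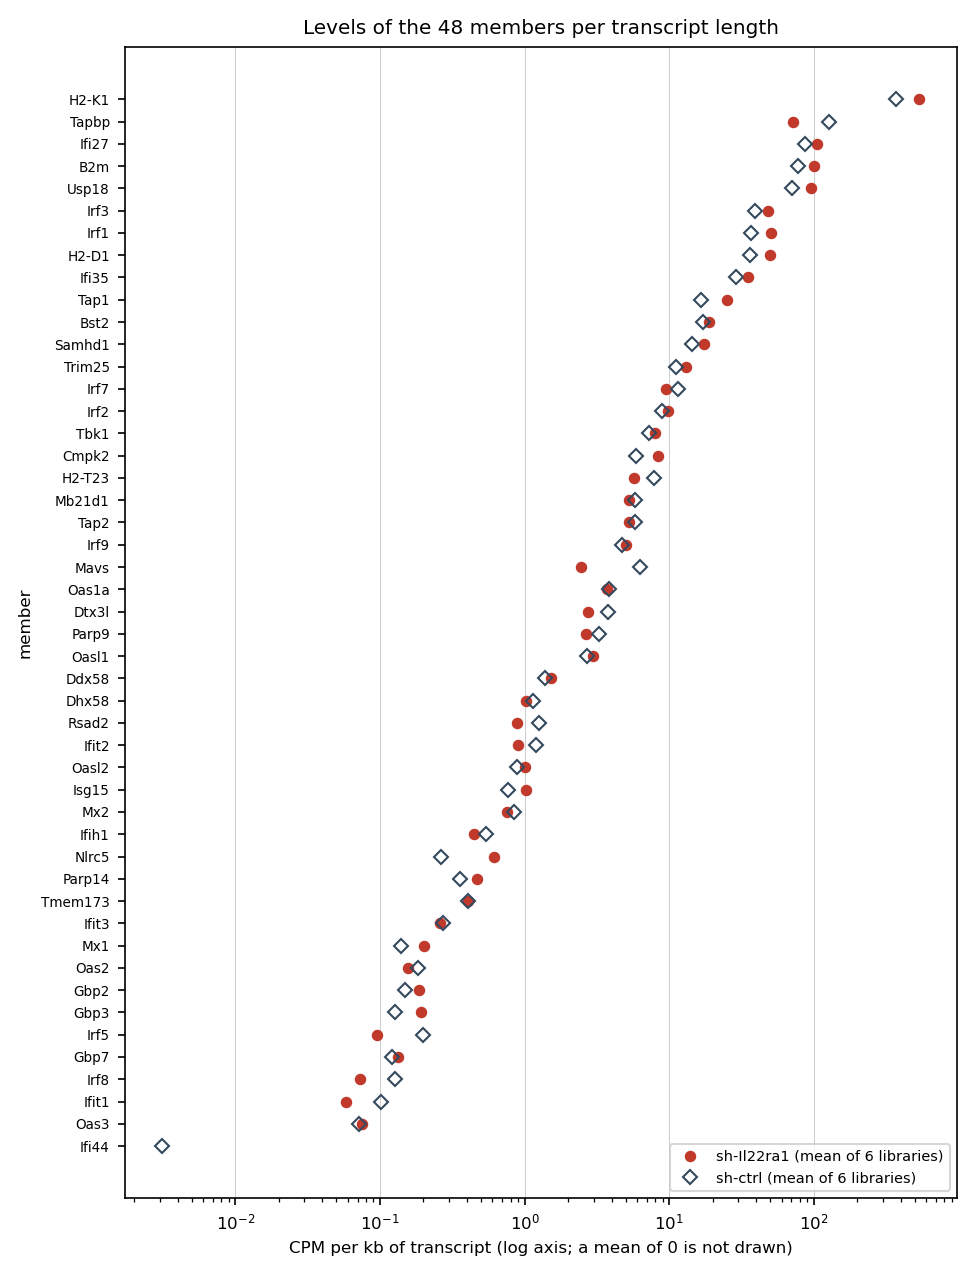
Mean level of each of the 48 members (y axis) in CPM per kb of transcript (x axis, log scale) in sh-Il22ra1 (filled circles) and sh-ctrl cells (open diamonds), 6 libraries each. H2-K1 lies highest in both groups, and Ifi44, with no read in sh-Il22ra1 libraries, has only its sh-ctrl point.

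Transcripts of the interferons themselves were at or near 0. Of 9 interferon genes looked up, namely Ifnb1, Ifna1, Ifna2, Ifna4, Ifng, Ifnl2, Ifnl3, Ifnk and Ifne, 7 had no read in any of the 12 libraries. Over the 6 sh-Il22ra1 libraries the 9 genes had 0 reads in all, which allows up to 0.0333 CPM for each (3 reads in 90.1 times 1e+06, counting error only). Over the 6 sh-ctrl libraries there were 3 reads, 2 of Ifna2 and 1 of Ifnl3.

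Promoter sequences show which members carry the letters that interferon-activated factors bind. RefSeq promoter windows on GRCm38.p6, from 250 bases before to 50 after the start of transcription, matched 36 of the 48 members by symbol. The ISRE was searched as GAAA, any 2 bases and GAAA again, and the gamma-activated site as TTCNNNGAA, on both strands, allowing overlaps. An ISRE match was present in 15 of the 36 members (41.7%), against 3.99% of 27025 genes with a window. By outcome, a match was present in 1 of 10 members that rose (B2m), 2 of 7 that fell (Rsad2 and H2-T23), 5 of 9 that did not pass and 7 of 10 below the filter. Among all tested genes with a window, 3.05% of those that rose had a match. The share was 3.11% of those that fell and 3.47% of those that did not pass. The gamma-activated site was present in 9 of 36 members (25.0%), against 9.55% of the genes with a window. The stretches shown are the ISRE matches upstream of the RefSeq start in the 3 called members that have one and, for comparison, in 7 members that did not pass or were below the filter. They are 30 bases each, 5′ to 3′ on the strand of the gene, with the matching letters in capitals. Irf2, Gbp3 and Oas1a also have upstream matches, which are not shown. By the GENCODE annotation, H2-T23 starts at base 36032855 and Gbp2 at base 142620602. The stretch of H2-T23 thus lies inside the GENCODE gene, and that of Gbp2 crosses the GENCODE start.

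B2m (chr2:122147538-122147567, plus strand, GRCm38.p6): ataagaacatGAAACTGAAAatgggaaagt
Rsad2 (chr12:26456553-26456582, minus strand, GRCm38.p6): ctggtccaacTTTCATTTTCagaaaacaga
H2-T23 (chr17:36032806-36032835, minus strand, GRCm38.p6): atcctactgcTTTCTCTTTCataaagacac
Bst2 (chr8:71537580-71537609, minus strand, GRCm38.p6): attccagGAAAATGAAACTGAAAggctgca
Isg15 (chr4:156200871-156200900, minus strand, GRCm38.p6): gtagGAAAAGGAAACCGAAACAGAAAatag
Ifit1 (chr19:34640785-34640814, plus strand, GRCm38.p6): TTTCACTTTCcagtctcagTTTCAGTTTCt
Ifit3 (chr19:34583397-34583426, plus strand, GRCm38.p6): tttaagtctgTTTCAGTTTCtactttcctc
Oas3 (chr5:120777715-120777744, minus strand, GRCm38.p6): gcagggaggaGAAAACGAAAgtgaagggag
Gbp2 (chr3:142620594-142620623, plus strand, GRCm38.p6): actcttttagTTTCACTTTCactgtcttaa
Gbp7 (chr3:142530273-142530302, plus strand, GRCm38.p6): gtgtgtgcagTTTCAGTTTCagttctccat

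In Isg15, 3 matches sit in this stretch, and in Ifit1 and Bst2 there are 2 each. Of the 15 members with a match, 7 were below the count filter, 5 were tested and did not pass, and 3 were called. H2-K1, H2-D1, Tap1, Irf1, Cmpk2, Samhd1 and Mavs had a window without the ISRE letters, although those of Irf1 and Samhd1 hold the gamma-activated site, and a missing match says nothing about factors binding there or elsewhere.

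Class I antigen presentation held 5 rises and 2 falls among its 8 members, all of them tested. The rises were in the transactivator Nlrc5, the heavy chains H2-K1 and H2-D1, the light chain B2m and the transporter chain Tap1, and the falls in the loading factor Tapbp and the non-classical heavy chain H2-T23. That is 87.5% of the 8 called, against 51.9% of all tested genes (25.4% higher and 26.5% lower). Of 25 other antigen presentation genes looked up, a list that also holds class II genes, 18 were tested. Of those, 6 rose and 4 fell, or 55.6% called, which is close to the share of all tested genes. In each of the following sentences 3 values are the lowest, the median and the highest of a group's 6 libraries. Nlrc5, the activator that binds class I promoters, had 3.57, 4.53 and 6.44 CPM in sh-Il22ra1 libraries, against 1.55, 1.91 and 2.85 CPM in sh-ctrl libraries. The groups did not overlap at this low level, with 417 reads over the sh-Il22ra1 and 176 over the sh-ctrl libraries in all (log2 fold change 1.20, SE 0.180, adjusted p = 2.08e-05, quasi-likelihood test of edgeR, adjusted over all tested genes by the Benjamini-Hochberg method, as is each adjusted p that follows).

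H2-K1, a classical class I heavy chain, had 945, 992 and 1069.9 CPM in sh-Il22ra1 libraries, against 629, 669 and 785 CPM in sh-ctrl libraries (log2 fold change 0.53, SE 0.0646, adjusted p = 1.88e-06). H2-D1, the other classical heavy chain counted here, had 92.1, 101 and 130.4 CPM in sh-Il22ra1 libraries, against 62.96, 73.3 and 90.4 CPM in sh-ctrl libraries (log2 fold change 0.47, SE 0.0896, adjusted p = 0.000243). In both heavy chains the lowest sh-Il22ra1 library lay above the highest sh-ctrl library. B2m, the gene of beta-2 microglobulin, had 75.9, 87.5 and 91.2 CPM in sh-Il22ra1 libraries, against 52.99, 66.6 and 81.4 CPM in sh-ctrl libraries (log2 fold change 0.37, SE 0.0875, adjusted p = 0.00177). Its groups overlapped, with sh-Il22ra1 replicate 6 below sh-ctrl replicate 1. The change of B2m was 0.20 on the log2 scale with offsets fitted to length and GC content of the transcripts, at adjusted p = 0.00278 in edgeR. Heavy chain genes resemble each other: of the 75-base windows of the reference transcripts, 1.33% for H2-K1, 6.90% for H2-D1 and 7.01% for H2-T23 also occur in other genes, mostly of the same family, so a small part of their reads cannot be assigned with certainty.

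Of the chains of the peptide transporter, Tap1 rose and Tap2 did not pass, and the difference between them was not tested. Tap1 had 88.3, 100.4 and 106 CPM in sh-Il22ra1 libraries, against 54.6, 65.2 and 69.4 CPM in sh-ctrl libraries, with no overlap between groups (log2 fold change 0.61, SE 0.0683, adjusted p = 7.17e-07). Tap2 had 15.5, 18.5 and 21.5 CPM in sh-Il22ra1 libraries, against 15.6, 19.8 and 24.9 CPM in sh-ctrl libraries, and did not pass (log2 fold change -0.13, SE 0.112, adjusted p = 0.337). Tapbp, the gene of tapasin, which holds empty class I molecules at the transporter, had 199.9, 210.2 and 223 CPM in sh-Il22ra1 libraries, against 351, 368 and 406 CPM in sh-ctrl libraries (log2 fold change -0.83, SE 0.0536, adjusted p = 6.46e-10). Every sh-Il22ra1 library lay below every sh-ctrl library, and the level was 1.77-fold lower. Tapbp shares 29.0% of its exon bases with Zbtb22 or a predicted gene, and Tap2 18.5% with predicted genes. Zbtb22, at 57.2 and 60.3 CPM in sh-Il22ra1 and sh-ctrl cells, did not pass (log2 fold change -0.08, adjusted p = 0.308). H2-T23, which presents leader peptides to natural killer receptors, had 13.2, 15.3 and 16.3 CPM in sh-Il22ra1 libraries, against 14.8, 21.4 and 23.3 CPM in sh-ctrl libraries (log2 fold change -0.45, SE 0.102, adjusted p = 0.00117). Its groups overlapped through sh-ctrl replicate 2, which held the lowest sh-ctrl value.

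**Figure D3:**
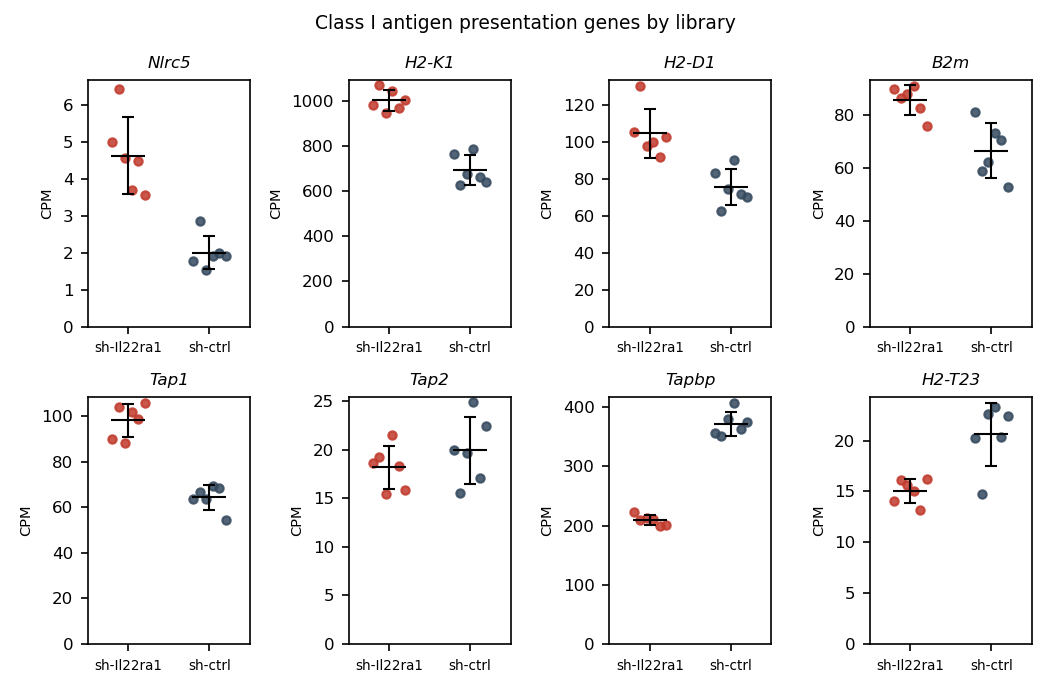
CPM (y axes, from 0) of the 8 class I antigen presentation genes in each library, sh-Il22ra1 left and sh-ctrl right, with mean and SD (n = 6 each). Nlrc5, H2-K1, H2-D1 and Tap1 lie higher and Tapbp lower in sh-Il22ra1 cells without overlap, while the Tap2 groups overlap.

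Among the 7 interferon regulatory factors, Irf1 and Irf3 were higher, Irf7 lower, and Irf2 and Irf9 did not pass. Of the 5 tested factors, 60.0% were called, against 51.9% of all tested genes. Irf1, which drives class I and interferon-gamma target genes, had 103, 109 and 110.2 CPM in sh-Il22ra1 libraries, against 69.7, 78.9 and 89.1 CPM in sh-ctrl libraries, without overlap (log2 fold change 0.46, SE 0.0605, adjusted p = 5.29e-06). Irf3, the factor that turns on interferon genes after sensing, had 87.8, 95.6 and 112 CPM in sh-Il22ra1 libraries, against 66.5, 79.8 and 95.2 CPM in sh-ctrl libraries (log2 fold change 0.28, SE 0.0788, adjusted p = 0.00587). The Irf3 groups overlapped, since sh-ctrl replicate 4 exceeded several sh-Il22ra1 libraries. Irf7, the factor that amplifies interferon production, had 28.1, 30.2 and 34.6 CPM in sh-Il22ra1 libraries, against 32.6, 38.1 and 41.5 CPM in sh-ctrl libraries (log2 fold change -0.28, SE 0.0721, adjusted p = 0.00297). Only sh-ctrl replicate 6 lay within the range of the sh-Il22ra1 libraries. Irf9, a DNA-binding part of the complex that recognises the ISRE, had 17.7, 19.02 and 21.2 CPM in sh-Il22ra1 libraries, against 16.7, 18.03 and 19.8 CPM in sh-ctrl libraries (log2 fold change 0.09, SE 0.0785, adjusted p = 0.351). Irf2, which competes with IRF1 for its sites, had 33.6, 39.1 and 43.5 CPM in sh-Il22ra1 libraries, against 30.9, 35.3 and 38.1 CPM in sh-ctrl libraries (log2 fold change 0.14, SE 0.0735, adjusted p = 0.109). Irf5 and Irf8, factors of myeloid and lymphoid cells, had too few reads for the test. Irf5 had 19 reads over the sh-Il22ra1 and 38 over the sh-ctrl libraries, and Irf8 had 23 reads over the sh-Il22ra1 and 38 over the sh-ctrl libraries.

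Of the 7 sensors and adaptors, all of them tested, Mavs fell and the other 6 did not pass (14.3% called, against 51.9% of all tested genes). Mavs, the mitochondrial adaptor downstream of the RNA sensors, had 6.31, 7.13 and 8.79 CPM in sh-Il22ra1 libraries, against 16.8, 19.9 and 21.5 CPM in sh-ctrl libraries (log2 fold change -1.36, SE 0.103, adjusted p = 4.44e-09). Its level was 2.57-fold lower, the largest change among the 37 tested members, and the highest sh-Il22ra1 library had less than any sh-ctrl library. The RNA sensors themselves were low. Ddx58, the gene of RIG-I, had 5.22, 5.71 and 6.79 CPM in sh-Il22ra1 libraries, against 4.27, 5.34 and 6.55 CPM in sh-ctrl libraries (log2 fold change 0.13, SE 0.126, adjusted p = 0.418), and Ifih1, the gene of MDA5, had 1.99, 2.44 and 2.99 CPM in sh-Il22ra1 libraries, against 2.09, 3.07 and 3.74 CPM in sh-ctrl libraries (log2 fold change -0.28, SE 0.172, adjusted p = 0.179). Dhx58, the related regulator LGP2, had 1.67, 2.47 and 3.05 CPM in sh-Il22ra1 libraries, against 2.00, 2.92 and 3.36 CPM in sh-ctrl libraries (log2 fold change -0.16, SE 0.178, adjusted p = 0.460). In all 3 the groups overlapped.

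On the DNA-sensing side, Mb21d1, the gene of cGAS, had 18.7, 20.9 and 24.3 CPM in sh-Il22ra1 libraries, against 17.6, 24.2 and 26.7 CPM in sh-ctrl libraries (log2 fold change -0.15, SE 0.102, adjusted p = 0.241). Mb21d1 passed downward without sh-ctrl replicate 4, its lowest sh-ctrl library (log2 fold change -0.23, adjusted p = 0.0293 in edgeR). Tmem173, the gene of the adaptor STING, was near the detection limit, with 0.616, 0.921 and 1.37 CPM in sh-Il22ra1 libraries, against 0.495, 0.787 and 1.69 CPM in sh-ctrl libraries (log2 fold change 0.01, SE 0.299, adjusted p = 0.972). The kinase gene Tbk1, on which both branches converge, had 20.5, 24.6 and 27.5 CPM in sh-Il22ra1 libraries, against 19.7, 21.8 and 24.3 CPM in sh-ctrl libraries (log2 fold change 0.14, SE 0.0887, adjusted p = 0.193).

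Among the 6 members that attach or remove ubiquitin-like and ADP-ribose marks, Usp18 and Trim25 were higher, Dtx3l and Parp9 lower, Parp14 did not pass and Isg15 was below the filter. Of the 5 tested ones, 80.0% were called, against 51.9% of all tested genes. Usp18, the protease that removes ISG15 from proteins and dampens the interferon receptor, had 163, 169 and 178 CPM in sh-Il22ra1 libraries, against 119, 123 and 133 CPM in sh-ctrl libraries, without overlap (log2 fold change 0.44, SE 0.0516, adjusted p = 1.15e-06). Its substrate gene Isg15 had only 69 reads over the sh-Il22ra1 and 49 over the sh-ctrl libraries. Per kb of transcript, Usp18 stood at 95.7 and Isg15 at 1.02 CPM in sh-Il22ra1 cells, and at 70.4 and 0.763 CPM in sh-ctrl cells. Trim25, the ubiquitin ligase that activates RIG-I, had 66.8, 72.4 and 82.3 CPM in sh-Il22ra1 libraries, against 52.6, 60.4 and 74.3 CPM in sh-ctrl libraries (log2 fold change 0.21, SE 0.0838, adjusted p = 0.0389). The Trim25 call ended in 11 of 21 alternative analyses, among them a filter at a mean of 1 CPM (adjusted p = 0.0530 in edgeR) and 9 of the 12 that each left out 1 library.

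Dtx3l, an E3 ligase, and Parp9, an ADP-ribosyltransferase, form a complex that acts in antiviral and DNA repair signalling. Dtx3l had 12.3, 15.1 and 15.6 CPM in sh-Il22ra1 libraries, against 14.7, 21.02 and 22.8 CPM in sh-ctrl libraries (log2 fold change -0.46, SE 0.101, adjusted p = 0.00102), and Parp9 had 7.48, 9.30 and 10.96 CPM in sh-Il22ra1 libraries, against 9.47, 11.9 and 12.3 CPM in sh-ctrl libraries (log2 fold change -0.30, SE 0.103, adjusted p = 0.0219). In each gene 1 sh-ctrl library, replicate 4 for Dtx3l and replicate 2 for Parp9, fell into the range of the sh-Il22ra1 libraries. Without sh-Il22ra1 replicate 4 Parp9 did not pass (-0.24, adjusted p = 0.0587 in edgeR). Parp14, another ADP-ribosyltransferase, had 2.47, 3.48 and 4.30 CPM in sh-Il22ra1 libraries, against 2.09, 2.64 and 3.46 CPM in sh-ctrl libraries (log2 fold change 0.39, SE 0.160, adjusted p = 0.0509), and passed upward in 5 of 21 alternatives.

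Of the 20 antiviral effectors 12 were tested, of which 3 rose, 2 fell and 7 did not pass (41.7% called, against 51.9% of all tested genes). Cmpk2, a mitochondrial nucleotide kinase, had 24.7, 27.2 and 30.7 CPM in sh-Il22ra1 libraries, against 17.8, 18.7 and 21.2 CPM in sh-ctrl libraries, without overlap (log2 fold change 0.52, SE 0.0741, adjusted p = 1.33e-05). Samhd1, which degrades deoxynucleotides, had 64.3, 67.4 and 75.7 CPM in sh-Il22ra1 libraries, against 51.2, 56.2 and 62.9 CPM in sh-ctrl libraries, again without overlap (log2 fold change 0.28, SE 0.0625, adjusted p = 0.00108). Ifi35 had 45.2, 46.7 and 53.8 CPM in sh-Il22ra1 libraries, against 32.7, 37.3 and 53.2 CPM in sh-ctrl libraries (log2 fold change 0.29, SE 0.0979, adjusted p = 0.0172), and the highest sh-ctrl library, replicate 4, reached the range of the sh-Il22ra1 libraries.

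Rsad2, the gene of the antiviral enzyme viperin, had 2.85, 3.77 and 4.57 CPM in sh-Il22ra1 libraries, against 4.35, 5.46 and 5.75 CPM in sh-ctrl libraries (log2 fold change -0.49, SE 0.141, adjusted p = 0.00724). Ifit2, which binds viral RNA, had 2.92, 3.34 and 3.97 CPM in sh-Il22ra1 libraries, against 3.44, 4.68 and 5.46 CPM in sh-ctrl libraries (log2 fold change -0.42, SE 0.141, adjusted p = 0.0178). Both of these classical interferon targets were thus lower at levels of a few CPM, with overlapping groups. Ifi27, an interferon-inducible protein of mitochondria, had 94.95, 99.6 and 113 CPM in sh-Il22ra1 libraries, against 65.7, 80.6 and 121 CPM in sh-ctrl libraries, and did not pass (log2 fold change 0.27, SE 0.116, adjusted p = 0.0578). Without sh-ctrl replicate 4, its highest library, Ifi27 passed upward (0.39, adjusted p = 0.00040 in edgeR), as it did without sh-ctrl replicate 1 (0.30, adjusted p = 0.0475).

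The remaining tested effectors did not pass: Bst2, which tethers budding virus, the oligoadenylate synthetase family members Oas1a, Oas2, Oasl1 and Oasl2, and Mx2, a dynamin-like GTPase. Their log2 fold changes ran from -0.25 for Oas2 to 0.18 for Oasl2. Bst2 was the most abundant of them by CPM, with 13.1, 14.6 and 18.3 CPM in sh-Il22ra1 libraries, against 11.5, 13.6 and 16.7 CPM in sh-ctrl libraries (log2 fold change 0.15, SE 0.103, adjusted p = 0.237). Of the 75-base windows of Oas1a, 47.6% also occur in Oas1g. Reads with more than 1 alignment, 3.76% to 4.40% of a file, were left out of the gene counts. Reads shared by these 2 genes may therefore be missing from both counts. Oas1g had 5.87 CPM ± 0.569 in sh-Il22ra1 and 5.80 CPM ± 0.913 in sh-ctrl cells (SD, n = 6 each).

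The effectors below the filter had very low levels, unlike tested ones such as Ifi27 and Samhd1. Mx1 had 61 reads over the sh-Il22ra1 and 41 over the sh-ctrl libraries, Ifit3 41 reads over the sh-Il22ra1 and 41 over the sh-ctrl libraries, Ifit1 14 reads over the sh-Il22ra1 and 23 over the sh-ctrl libraries and Oas3 32 reads over the sh-Il22ra1 and 30 over the sh-ctrl libraries. Gbp7 had 67 reads over the sh-Il22ra1 and 60 over the sh-ctrl libraries, Gbp3 46 reads over the sh-Il22ra1 and 29 over the sh-ctrl libraries and Gbp2 42 reads over the sh-Il22ra1 and 31 over the sh-ctrl libraries, and Ifi44 had 0 reads over the sh-Il22ra1 and 1 over the sh-ctrl libraries. In Ifit3, 41.1% of the 75-base windows are shared with Ifit3b. In an edgeR fit with no count filter, 0 of the 11 members below the filter passed, and 0 had an unadjusted p under 0.05.

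**Figure D4:**
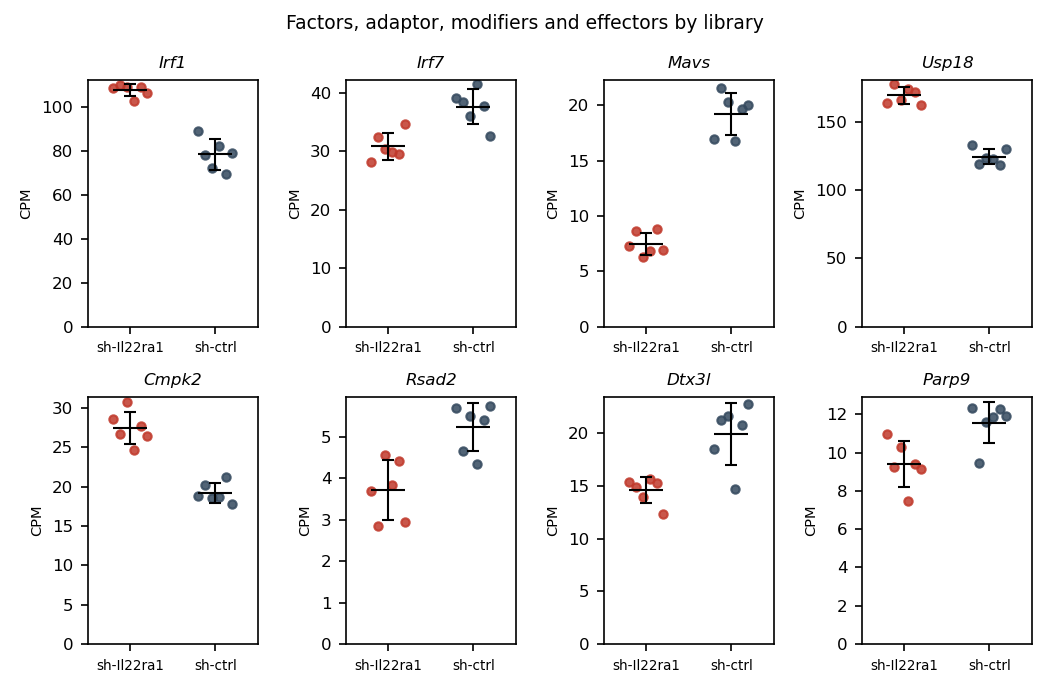
CPM (y axes, from 0) of 8 called members in each library, sh-Il22ra1 left and sh-ctrl right, with mean and SD (n = 6 each). Irf1, Usp18 and Cmpk2 lie higher and Mavs lower in sh-Il22ra1 cells without overlap, and single libraries overlap in Irf7, Rsad2, Dtx3l and Parp9.

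Several members are neighbours transcribed in opposite directions, and the neighbours did not always move alike. Cmpk2 and Rsad2 lie on chromosome 12 with annotated starts 12752 bases apart, and Cmpk2 rose while Rsad2 fell. The log2 ratio of Cmpk2 to Rsad2 was 2.90 ± 0.251 in sh-Il22ra1 cells and 1.88 ± 0.208 in sh-ctrl cells (SD, n = 6 each), with a range of 2.64 to 3.23 against 1.63 to 2.12. Dtx3l and Parp9 on chromosome 16, with starts 681 bases apart, both fell, and their log2 ratio was 0.64 ± 0.241 in sh-Il22ra1 cells and 0.78 ± 0.299 in sh-ctrl cells. Tap1 and Psmb9, an immunoproteasome subunit gene on chromosome 17 with its start 211 bases from that of Tap1, both rose (log2 fold change 0.50, SE 0.149, adjusted p = 0.00941 for Psmb9). These pairs were picked with their values known, so their ratios are given without a test. The annotated exons of Dtx3l and Parp9 overlap by 8% and 9.40% of their bases and those of Tap1 overlap Psmb9 by 3.87%, which leaves some reads uncertain.

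Apart from the group difference, some members varied together from library to library. Over the 12 libraries, deviations from the group means on the log2 CPM scale were correlated for 27 members with a mean of at least 5 CPM, as a description without a test, since all members share the libraries and their depth. The median Pearson r of the 351 pairs was 0.0056, and 9 pairs exceeded 0.8. The highest r was 0.97 (Spearman's rho 0.90) between Ifi27 and Ifi35, and it was 0.92 without sh-ctrl replicates 1 and 4. H2-K1 was high where Ifi35 (0.90) and H2-D1 (0.86) were high. Tap1 went the other way from Samhd1 (r = -0.91) and Irf9 (r = -0.84). A single library often held the extreme value, since sh-ctrl replicate 4 was the highest sh-ctrl library for 15 and the lowest for 9 of the 37 tested members.

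Beyond the members, 103 other genes of the pathway were looked up, from receptors to immunoproteasome and class II genes, of which 68 were tested. Among them 17 rose, 12 fell and 39 did not pass, or 42.6% called against the 51.9% of all tested genes, at a median log2 fold change of 0.02. The 8 with the smallest p were led by Parp10, an ADP-ribosyltransferase (log2 fold change 0.86, SE 0.0569, adjusted p = 8.07e-10). Ifngr2, the second chain of the interferon-gamma receptor, had 85.6, 86.6 and 97.7 CPM in sh-Il22ra1 libraries, against 44.8, 51.7 and 56.03 CPM in sh-ctrl libraries, without overlap (log2 fold change 0.80, SE 0.0635, adjusted p = 8.45e-09). The adaptor gene Myd88 (log2 fold change 0.65, SE 0.0686, adjusted p = 3.49e-07) and the kinase gene Ikbke (log2 fold change 0.63, SE 0.0787, adjusted p = 2.42e-06) rose in the sensing branch. H2-DMa, a class II loading factor, rose at a low level, with 8.08, 8.58 and 10.4 CPM in sh-Il22ra1 libraries, against 2.46, 3.20 and 4.74 CPM in sh-ctrl libraries (log2 fold change 1.36, SE 0.148, adjusted p = 4.77e-07). Ube2l6, the conjugating enzyme for ISG15, fell and had 25.96, 32.9 and 34.7 CPM in sh-Il22ra1 libraries, against 44.5, 50.5 and 64.1 CPM in sh-ctrl libraries (log2 fold change -0.72, SE 0.0894, adjusted p = 2.46e-06). The RNA-editing enzyme gene Adar (log2 fold change 0.56, SE 0.0820, adjusted p = 1.59e-05) and the chaperone gene Calr, which is part of the loading complex with tapasin (log2 fold change 0.32, SE 0.0596, adjusted p = 0.000210), rose. Pdia3 and Canx, also listed for antigen presentation, were named after their values were seen. Pdia3 fell (log2 fold change -0.26, SE 0.0779, adjusted p = 0.00968), and Canx did not pass (log2 fold change -0.07, SE 0.0559, adjusted p = 0.299).

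The receptor and signalling genes were named after their values were seen. Ifngr1, the ligand-binding chain of the interferon-gamma receptor, rose (log2 fold change 0.31, SE 0.0747, adjusted p = 0.00189), and so did Ifnlr1, the receptor chain for type III interferon (log2 fold change 0.56, SE 0.175, adjusted p = 0.0124). The type I receptor genes Ifnar1 (log2 fold change 0.05, SE 0.0657, adjusted p = 0.578) and Ifnar2 (log2 fold change -0.05, SE 0.0684, adjusted p = 0.551) did not pass. Stat2, a signalling factor of the type I response, had 21.8, 23.1 and 27.5 CPM in sh-Il22ra1 libraries, against 19.9, 23.3 and 29.7 CPM in sh-ctrl libraries, and did not pass (log2 fold change -0.04, SE 0.0930, adjusted p = 0.737). The kinases Jak1 (log2 fold change -0.24, SE 0.0622, adjusted p = 0.00294) and Jak2 (log2 fold change -0.46, SE 0.116, adjusted p = 0.00270) fell.

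Markers of several cell types moved with the groups, against a background of 51.9% of all tested genes called. The summed level of 10 leukocyte markers was 6.17 to 10.7 CPM in sh-Il22ra1 and 19.9 to 28.5 CPM in sh-ctrl libraries, most of it from Cd68, a lysosomal protein abundant in macrophages, which fell (log2 fold change -1.84, SE 0.111, adjusted p = 2.66e-10). The other 9 together gave 0.686 to 3.06 CPM in sh-Il22ra1 and 1.73 to 5.19 CPM in sh-ctrl libraries. Of these, Laptm5 fell, at 0.167 and 1.02 CPM in sh-Il22ra1 and sh-ctrl cells (log2 fold change -2.54, SE 0.348, adjusted p = 7.68e-06), Lyz2 did not pass, and the remaining 7, the defining marker Ptprc among them, were below the filter.

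The 6 fibroblast markers summed to 1.04 to 2.13 CPM in sh-Il22ra1 and 3.09 to 6.34 CPM in sh-ctrl libraries, and the collagen genes Col1a1 (log2 fold change -1.69, SE 0.222, adjusted p = 4.64e-06) and Col1a2 (log2 fold change -1.51, SE 0.483, adjusted p = 0.0136) fell. The 4 markers of other islet cells summed to 145 to 158 CPM in sh-Il22ra1 and 243 to 294 CPM in sh-ctrl libraries. Both of those tested fell, namely the glucagon gene Gcg, at 147 and 267 CPM in sh-Il22ra1 and sh-ctrl cells (log2 fold change -0.86, SE 0.0568, adjusted p = 7.72e-10), and the somatostatin gene Sst (log2 fold change -0.62, SE 0.171, adjusted p = 0.00549). The 5 endothelial markers gave 5.27 to 7.92 CPM in sh-Il22ra1 and 3.51 to 8.001 CPM in sh-ctrl libraries, with no call among the 2 tested, and the 5 acinar markers, all below the filter, gave 0.391 to 1.04 CPM in sh-Il22ra1 and 0.334 to 0.840 CPM in sh-ctrl libraries.

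The 6 beta-cell markers summed to 63098 to 72329 CPM in sh-Il22ra1 and 70101 to 107098 CPM in sh-ctrl libraries, and moved both ways. Iapp, the gene of islet amyloid polypeptide (log2 fold change -0.63, SE 0.0787, adjusted p = 2.65e-06), and the insulin gene Ins1 (log2 fold change -0.36, SE 0.0850, adjusted p = 0.00153) fell, the zinc transporter gene Slc30a8 rose (log2 fold change 0.24, SE 0.0514, adjusted p = 0.000676), and Ins2, Pdx1 and G6pc2 did not pass. All libraries are from 1 line, Min6, so these markers do not count cells of other types. In bulk RNA, fewer Min6 cells with a transcript and less of it per cell cannot be told apart. The part of these markers in the members' changes was not tested.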

How the data were processed

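RNA sequencing counts of 12 Min6 libraries were used, 6 a group, grouped by their labels. The authors deposited read counts per gene, made with HISAT2 2.0.5 and HTSeq on mm10, per the submitters' processing notes; the strand setting is not given in the sources used here. Library sizes exclude the rows for unassigned reads (reads not aligned were 8.71% to 17.3% of a file). Members and gene lists were chosen with earlier results of these data known. All members may be named; of the other pathway genes, the 8 called ones with the smallest p were named by rule.

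Genes were filtered with filterByExpr (minimum count 10, total 15), scaled by TMM and tested in edgeR 4.0.16 (R 4.3.3) with the quasi-likelihood test, sh-Il22ra1 over sh-ctrl, with Benjamini-Hochberg adjustment over 13102 genes at 0.05. Alternatives were RLE and upper-quartile scaling, DESeq2 1.42.0, limma-voom 3.58.1, other filters, length and GC offsets, a replicate block, and left-out libraries. Libraries of a group differed by more than sampling noise (lowest chi-square per degree of freedom 3.82), so none were merged. Lengths and exon overlaps came from GENCODE M 21, promoters from RefSeq on GRCm38.p6. Limits from a count of 0 use 3 reads and cover counting error only.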

Additional observations from a re-analysis of the deposited data

Results flagged for a closer look

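In 6 of 74 groups of 6 libraries, 1 library lay apart from the others by Dixon's criterion at the 95% level, where chance gives about 3.7 (1 in 20). Mb21d1 had 17.57 CPM in sh-ctrl replicate 4, below the group's median of 24.23. Oas1a had 10.01 CPM in sh-ctrl replicate 4, above a median of 6.812. Parp9 had 9.466 CPM in sh-ctrl replicate 2 (median 11.89), H2-T23 had 14.78 CPM there (median 21.41), and Nlrc5 had 2.853 CPM there (median 1.913). H2-D1 had 130.4 CPM in sh-Il22ra1 replicate 2, above a median of 101.5.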

How the results depend on the processing

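Across 21 alternatives the members called higher numbered 11 to 13 and those called lower 7 to 9, against 12 and 8. All tested genes called higher numbered 2881 to 3781 and lower 3239 to 4146, and other pathway genes 16 to 22 and 9 to 15. Of 775 recomputed member values, 737 kept direction and side of the threshold, 12 lost and 13 gained it, and 13 changed sign. Of the 20 called members, 18 passed in every alternative, and the exceptions were Trim25 and Parp9. Values that changed sign belonged to members that did not pass: Tmem173 was -0.082 with length and GC offsets and -0.13 to 0.25 with 1 library left out, Oas1a 0.050 without sh-ctrl replicates 1 and 4 and -0.10 to 0.059 with 1 library left out, and Mx2 0.090 without sh-ctrl replicates 1 and 4. The cause was not tested. Whether replicate numbers pair the libraries is not settled by the values. The correlation of same-numbered deviations ran from -0.033 to 0.23 and was over 0.1 in 3 of 6 pairs, with the own number best in 2 of 6. With the replicate block 13 members were higher and 8 lower, 3463 and 3566 of all genes, and 22 and 12 of the other pathway genes. Depth limits the 11 members below the filter.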
